A study of Homo sapiens with 4 samples.

Results

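The genes examined were 10 components of the Notch pathway: the receptors NOTCH1, NOTCH2 and NOTCH3, the nuclear partners RBPJ, MAML1 and MAML2, the target genes HES1 and DTX1, and the regulators FBXW7 and NUMB. They were chosen by name, with earlier results of these data known. The peaks counted for each were those that the authors assigned to its Ensembl gene on the sense strand. These lay in a coding, untranslated, noncoding exonic or intronic region. Of 20428 gene identifiers with a sense peak in either iRIP library, 9 belonged to these genes, and HES1 had none. The 10 genes held 98 of 74237 sense peaks in replicate 1 and 145 of 77288 in replicate 2. Each peak is a stretch of RNA recovered with IGF2BP2, an RNA-binding protein known as a reader of N6-methyladenosine (m6A). The cells were Jurkat, a human T cell acute lymphoblastic leukaemia (T-ALL) line, without any gene edit or drug named in the labels. After UV crosslinking, IGF2BP2 was pulled down with an antibody and the attached RNA was sequenced (iRIP-seq) in 2 libraries, replicates 1 and 2. Their peak lists were used, and 2 input libraries of the same cells were not analysed here.

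Notch receptors are membrane proteins that are cleaved after they meet a ligand on a neighbouring cell, first by an ADAM protease and then by γ-secretase. The released intracellular part enters the nucleus and joins RBPJ, the DNA-binding protein of the pathway, and a Mastermind-like coactivator (the MAML proteins), and genes such as HES1 and DTX1 are then transcribed. FBXW7, the substrate-binding part of a ubiquitin ligase, marks intracellular Notch for degradation, and NUMB, an endocytic adaptor, restrains the receptors. NOTCH1 carries activating mutations in many T-ALL cases, and FBXW7 is often mutated as well.

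The height of a peak is given in tags and was not adjusted for the number of reads, which is unknown for both libraries. Replicate 1 listed no peak under 4 tags and replicate 2 none under 5, and 66.8% and 54.4% of all sense peaks stood at these lowest heights. The labels do not say whether the replicates were separate cultures, so the spread between them may be technical. Without the inputs, the number of peaks cannot be set against the amount of each RNA, so less binding and less RNA cannot be told apart. Of 10 T cell marker genes 8 had sense peaks in both libraries, where 43.8% of protein-coding genes did. The 10 held 87 and 96 peaks in sum, of which ZAP70 alone had 36 and 37. Of 5 B cell markers 1 did, PAX5, with 5 peaks in each library, and the list held 5 and 7 peaks in sum. Of 5 myeloid markers 1 did, CSF1R, with 1 peak in each library, and the list held 3 and 2 peaks in sum.

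NOTCH1 had the most sense peaks of the 10 genes in each library, and HES1 was the only gene without any. NOTCH1 (ENSG00000148400.13) lies on the minus strand of chr9:136494433-136546048 (GRCh38, RefSeq annotation) and had 48 sense peaks in replicate 1 and 57 in replicate 2, 52.5 ± 6.36 (SD, n = 2). Its share of the peaks of the 10 genes was 49.0% in replicate 1, with a 95% Wilson interval of 39.3 to 58.7, and 39.3% in replicate 2, with an interval of 31.7 to 47.4. NOTCH3, next in order, had 16 and 28 peaks, 22.0 ± 8.49. The lower of the NOTCH1 values, 48, was above the highest value of any other gene, 28. Below NOTCH3 the order was not settled by these libraries. DTX1 had 4 and 15 peaks, NOTCH2 4 and 11, FBXW7 7 and 8, RBPJ 6 and 8, MAML1 5 and 7, MAML2 7 and 5, and NUMB 1 and 6. The ranges of neighbouring genes in this order all overlapped. Replicate 2 held more peaks than replicate 1 in 8 of the 10 genes, and MAML2 was the gene with fewer. In the whole lists, the median identifier had 2 sense peaks, and 70 of 16756 identifiers in replicate 1 and 58 of 15826 in replicate 2 had more than NOTCH1. For NOTCH3, 646 and 290 identifiers had more.

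**Figure D1:**
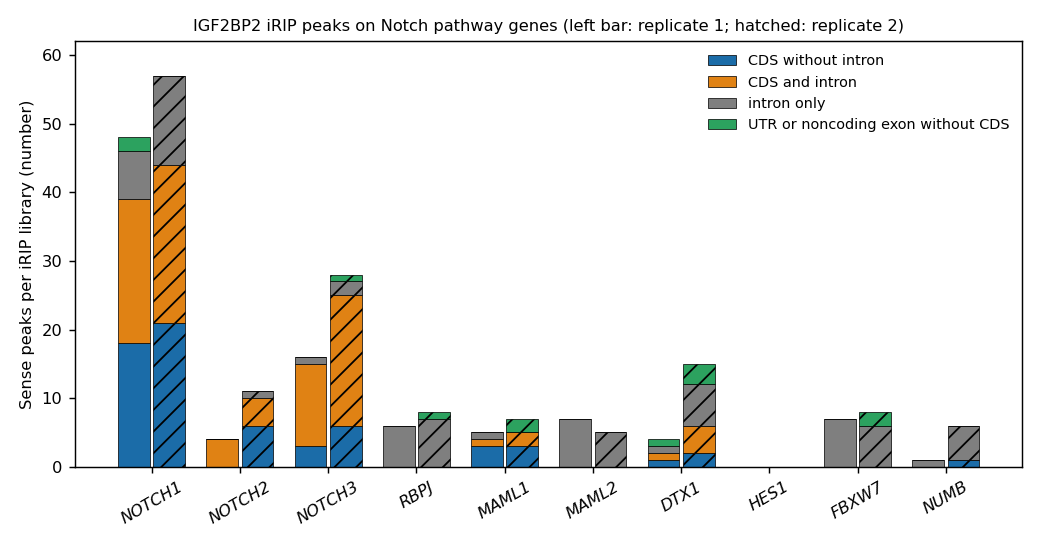
Number of sense peaks (vertical axis) of each of the 10 Notch pathway genes in replicate 1 (plain bars) and replicate 2 (hatched bars), coloured by the part of the gene that the peak covers. NOTCH1 reaches 48 and 57 peaks and NOTCH3 16 and 28, the bars of RBPJ, MAML2 and FBXW7 are grey (intron only) almost throughout, and HES1 has no bar.

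The order changed with gene length taken into account, but NOTCH1 stayed first. The gene spans 51.6 kb and had 9.3 and 11.0 sense peaks per 10 kb, against 3.81 and 6.67 for NOTCH3, which spans 42.0 kb. The ratio between the receptors was 2.44 in replicate 1 and 1.65 in replicate 2. DTX1 (41.3 kb) followed with 0.969 and 3.63 peaks per 10 kb and MAML1 (44.5 kb) with 1.12 and 1.57. All the other genes with a peak span 158.1 kb or more, and none of them exceeded 0.7 peaks per 10 kb in either library. MAML2, the longest gene at 366.6 kb, had 0.191 and 0.136. This scale divides by the whole gene with its introns, since the lengths of the mature transcripts were not used here.

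All 9 genes with a peak had one in both libraries, where 59.5% of all identifiers with a sense peak in either library did, 82.0% having one in replicate 1 and 77.5% in replicate 2. Fewer had peaks at the same place. An overlap was counted when a sense peak shared at least 1 bp with a sense peak of the other library on the same strand, and 4 of the 10 genes had such a pair, NOTCH1, NOTCH3, MAML1 and DTX1, against 16.4% of the identifiers. NOTCH2, RBPJ, MAML2, FBXW7 and NUMB had peaks in each library but no overlapping pair. The number of peaks, which differed between the genes, was not held equal in this count.

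The receptors were compared first. In NOTCH1, 28 of 48 peaks in replicate 1 (58.3%) and 37 of 57 in replicate 2 (64.9%) lay mainly in the coding sequence (CDS), and almost all others were mainly intronic, 17 and 20. The CDS held the main part of 19.9% and 25.6% of all sense peaks in the lists. Intronic NOTCH1 peaks often reached into an exon, so that 39 of 48 and 44 of 57 peaks held some coding sequence and 7 and 13 were intronic throughout. Only 2 peaks in replicate 1 and none in replicate 2 lay mainly in the 3′ UTR.

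NOTCH3 (ENSG00000074181.9, minus strand of chr19:15159038-15200995) had 9 of 16 and 14 of 28 peaks mainly in CDS. Peaks that held both CDS and intron were 12 and 19 (75.0% and 67.9%), against 21 and 23 (43.8% and 40.4%) in NOTCH1. A single NOTCH3 peak in replicate 1 and 2 in replicate 2 were intronic throughout, and these differences between the receptors were not tested. In NOTCH2 (ENSG00000134250.20, minus strand of chr1:119911553-120069662) all 4 peaks of replicate 1 and 7 of 11 in replicate 2 were mainly in CDS. NOTCH2 has closely related copies on the same chromosome. Reads that fit several places were not kept by the authors, so the number and the places of its peaks are uncertain. Its peaks sat far along the gene, with a median distance from the annotated 5′ end of 136.7 kb in replicate 1 and 146.0 kb in replicate 2, or 86.5% and 92.4% of its length. The median peak of NOTCH1 sat at 63.5% and 67.5% and that of NOTCH3 at 36.8% and 37.2%. These distances include introns and do not give places along the mature transcripts.

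Among RBPJ and the coactivators, the peaks were mainly intronic except in MAML1. RBPJ (ENSG00000168214.21, plus strand of chr4:26105449-26435131) had 6 peaks of 4 to 5 tags in replicate 1 and 8 peaks of 5 to 6 tags in replicate 2, and all but 1 were intronic throughout. The exception lay in the 5′ UTR at chr4:26321500-26321550 in replicate 2, with 5 tags. An intronic peak of 5 tags in replicate 1, chr4:26321900-26321950, touched another of 5 tags in replicate 2, chr4:26321950-26322000, without overlap, and counting such neighbours would bring the genes with a pair to 5. MAML2 (ENSG00000184384.14, minus strand of chr11:95976598-96343195) had 7 peaks in replicate 1, each at 4 tags, and 5 peaks of 5 to 6 tags in replicate 2, all intronic throughout. They were spread over the gene from 23.27 to 298.97 kb from its 5′ end in replicate 1. MAML1 (ENSG00000161021.13, plus strand of chr5:179732822-179777283) had 2 peaks mainly in CDS in each library. A peak at chr5:179771100-179771150, listed mainly as noncoding exon, had 8 tags in both libraries, the greatest height of the gene. A peak of replicate 2 at chr5:179768800-179768850 also had 8 tags and no counterpart. Another MAML1 peak, at chr5:179773850-179773900 across the border of an intron, had 4 tags in replicate 1 and 6 in replicate 2.

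Of the targets, DTX1 had peaks and HES1 had none. HES1, a repressor of transcription and an immediate target of Notch, lies at chr3:194136148-194138732 and is the shortest of the 10 genes at 2.6 kb. No sense peak and no antisense peak was assigned to it, and its identifier appeared in neither list. Too little signal for a peak, the annotation and the removal of peaks shared with the input cannot be told apart from the lists. DTX1 (ENSG00000135144.7, plus strand of chr12:113056730-113098025), the Deltex ubiquitin ligase, had 4 peaks in replicate 1, all at 4 tags, and 15 in replicate 2, from 5 to 12 tags. The 15 comprised 5 peaks mainly in CDS and 8 mainly intronic ones, besides 1 of the 3′ UTR and 1 of a noncoding exon. The highest, chr12:113095300-113095350 with 12 tags, had no counterpart in replicate 1. The only overlapping DTX1 pair, at chr12:113096700-113096750 across a border of CDS and intron, had 4 tags in replicate 1 and 8 in replicate 2.

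The peaks of the regulators were low and mostly intronic, as most sense peaks of the lists were, and nowhere shared. Of 8 and 14 peaks in the respective libraries, 62.5% and 71.4% stood at the lowest height, against 66.8% and 54.4% of all sense peaks. All 8 and 11 of the 14 were intronic throughout. Such peaks rarely met one of the other library anywhere, 2.91% and 3.22% in the whole lists. The lack of shared peaks in these genes cannot be told apart from that background. FBXW7 (ENSG00000109670.16, minus strand of chr4:152320544-152536092) had 7 peaks of 4 to 5 tags in replicate 1, all intronic throughout. Its 8 peaks of replicate 2 had 5 to 7 tags, and 2 of them lay in the 5′ UTR, where chr4:152535850-152535900 was the highest of the gene with 7 tags. NUMB (ENSG00000133961.21, minus strand of chr14:73275216-73458546) had 1 intronic peak of 4 tags in replicate 1 and 6 peaks of 5 to 6 tags in replicate 2. One of these, chr14:73277100-73277150 with 5 tags, lay wholly in CDS.

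The 4 longest genes, RBPJ, MAML2, FBXW7 and NUMB, shared a profile that the selection by name did not use. Intronic throughout were all 21 peaks of replicate 1 and 23 of 27 of replicate 2 (85.2%), where 62.8% and 53.9% of all sense peaks were. At the lowest height of the list were 17 of 21 (81.0%) and 20 of 27 (74.1%), against 66.8% and 54.4% of all sense peaks. None of them met a peak of the other library, and among all intronic peaks of this kind in the lists few did, as given with the overlap values. The grouping was made after the values were seen and was not tested.

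NOTCH1 had a larger share of peaks of 10 tags or more than the other genes in replicate 2, though the heights overlapped. NOTCH1 peaks had 4 to 12 tags in replicate 1, with a median of 5, and 5 to 17 tags in replicate 2, with a median of 7. Peaks of the other 9 genes had 4 to 8 tags, with a median of 4, and 5 to 12 tags, with a median of 5. High peaks, taken as those with 10 tags or more, made up 4 of 48 NOTCH1 peaks in replicate 1 (8.33%) and 14 of 57 in replicate 2 (24.6%), where 2.73% and 8.75% of all sense peaks were as high. Of the other genes, no peak in replicate 1 (0 of 50, which allows a share of up to 6.0%) and 2 of 88 in replicate 2 (2.27%) were as high. These were the DTX1 peak of 12 tags and a NOTCH3 peak of 11 tags at chr19:15191950-15192000. The share of high peaks differed by 22.3 percentage points in replicate 2 (95% interval, 11.4 to 34.9, Newcombe; adjusted p = 0.000122, two-sided Fisher's exact test). In replicate 1 the difference of 8.33 points (-0.405 to 19.6) did not pass the threshold (adjusted p = 0.0539, two-sided Fisher's exact test). P-values were adjusted over 6 tests, and they compare peaks inside 1 library. The peaks of a gene share its RNA and are not replicates, and PCR copies of a molecule are not told apart. Intervals and p-values therefore cover counting error only. The authors had already picked out NOTCH1 among the genes bound in this iRIP-seq experiment, so the tests are not independent of that choice.

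**Figure D2:**
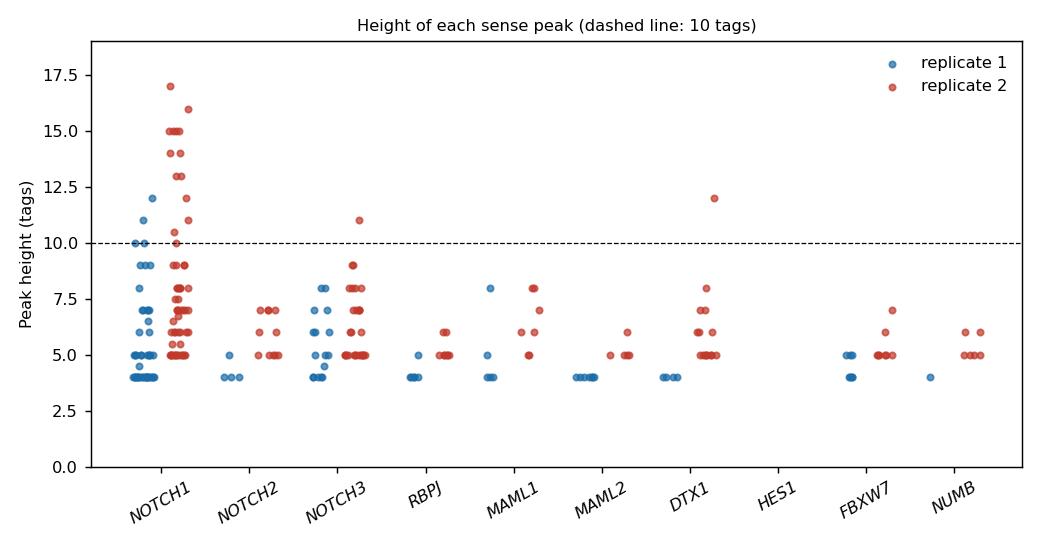
Height in tags (vertical axis) of every sense peak of the 10 genes, in blue for replicate 1 and in red for replicate 2, with a dashed line at 10 tags. Above or at the line are 4 NOTCH1 peaks in replicate 1, and 14 NOTCH1 peaks, 1 NOTCH3 peak and 1 DTX1 peak in replicate 2.

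Replicate 1 includes peaks of 4 tags that replicate 2 cannot list. With at least 5 tags, the lowest height found in both lists, NOTCH1 kept 26 peaks in replicate 1 and NOTCH3 kept 10, while FBXW7 kept 3, MAML1 2, and NOTCH2 and RBPJ 1 each. No peak of MAML2, DTX1 or NUMB in replicate 1 reached 5 tags.

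The share of peaks in CDS was also higher in NOTCH1 than in the other 9 genes pooled. The others had 17 of 50 peaks mainly in CDS in replicate 1 (34.0%) and 29 of 88 in replicate 2 (33.0%). The difference was 24.3 points (4.61 to 41.6) in replicate 1 (adjusted p = 0.0303, two-sided Fisher's exact test) and 32.0 points (15.4 to 46.2) in replicate 2 (adjusted p = 0.000366, two-sided Fisher's exact test). Among peaks of at least 5 tags, the difference in replicate 1 was 18.3 points and no longer passed (adjusted p = 0.344, two-sided Fisher's exact test), and with a p value of the peak under 0.001 neither library passed. Against the other receptors alone this difference was not seen. NOTCH2 and NOTCH3 together had 13 of 20 peaks (65.0%) and 21 of 39 peaks (53.8%) mainly in CDS. NOTCH1 stood 6.67 points below them in replicate 1 (difference -6.67, interval -28.6 to 18.5, adjusted p = 0.786, two-sided Fisher's exact test). In replicate 2 it stood 11.1 points above (-8.45 to 29.9, adjusted p = 0.374, two-sided Fisher's exact test). Both intervals include 0 and are wide, so equal shares are not shown. The remaining 7 genes had 4 of 30 (13.3%) and 8 of 49 (16.3%) peaks mainly in CDS.

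Peaks of NOTCH1 met one of the other library more often than those of the other genes. This held for 24 of 48 NOTCH1 peaks in replicate 1 (50%) and 23 of 57 in replicate 2 (40.4%), against 16.6% and 15.8% of all sense peaks. The other 9 genes had 9 of 50 (18%) and 9 of 88 (10.2%). The differences were 32.0 points (13.3 to 47.9, adjusted p = 0.00181, two-sided Fisher's exact test) and 30.1 points (15.9 to 43.9, adjusted p = 0.000122, two-sided Fisher's exact test). Among peaks of at least 5 tags in both lists, the difference in replicate 1 was 24.4 points (adjusted p = 0.133, two-sided Fisher's exact test). In replicate 2 it fell to 18.9 points, 14 of 57 against 5 of 88 peaks (adjusted p = 0.00363, two-sided Fisher's exact test). With a p value of the peak under 0.001 the difference passed in neither library. NOTCH3 alone had 6 of 16 (37.5%) and 6 of 28 (21.4%) overlapped, and NOTCH2 had 0 of 4 and 0 of 11. Against these receptors NOTCH1 was 20.0 points higher in replicate 1, which did not pass the threshold (-5.78 to 40.6, adjusted p = 0.363, two-sided Fisher's exact test). In replicate 2 it was 25 points higher (6.43 to 40.3, adjusted p = 0.0369, two-sided Fisher's exact test). The share of peaks of at least 10 tags was also higher than in these receptors in replicate 2, by 22.0 points (7.86 to 34.7, adjusted p = 0.0207, two-sided Fisher's exact test). In number of overlapped peaks, 39 identifiers in replicate 1 and 43 in replicate 2 had more than NOTCH1. An overlapped peak is a single event counted from both sides, so the values of the libraries are not independent of each other. The density of peaks, given above, was also highest in NOTCH1, and its part in the overlap was not tested.

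The overlap went with what a peak covered. NOTCH1 peaks that held both CDS and intron were overlapped in 15 of 21 cases in replicate 1 (71.4%) and 15 of 23 in replicate 2 (65.2%). For peaks with CDS and no intron the counts were 9 of 18 (50%) and 8 of 21 (38.1%). Of the NOTCH1 peaks that were intronic throughout, 0 of 7 and 0 of 13 were overlapped, which allows shares of up to 42.9% and 23.1%. The other 9 genes had the same order, 7 of 18 (38.9%) and 7 of 29 (24.1%) with both, 2 of 7 (28.6%) and 2 of 18 (11.1%) with CDS alone, and 0 of 24 and 0 of 32 with intron alone. Over all 10 genes, no peak that was intronic throughout was overlapped, 0 of 31 and 0 of 45. In the whole lists 2.91% and 3.22% of such peaks were, while 53.4% and 38.7% of those with CDS and intron and 38.2% and 28.6% of those with CDS alone were overlapped. The zero counts here lie near that background and allow up to 9.68% and 6.67%. This division by coverage was made after the values were seen and was not tested.

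**Figure D3:**
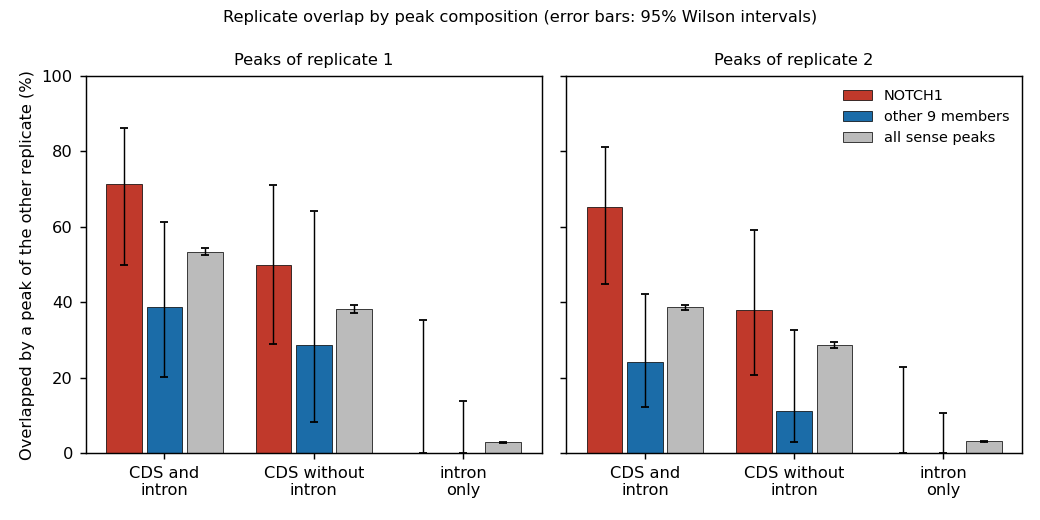
Percentage of sense peaks overlapped by a peak of the other library (vertical axis) by what the peak covers, for NOTCH1, the other 9 genes and all sense peaks, with replicate 1 on the left and replicate 2 on the right and 95% Wilson intervals as error bars. NOTCH1 peaks with CDS and intron reach 71.4% and 65.2%, and no bar is seen for peaks of the 10 genes that are intronic throughout.

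Along NOTCH1, the overlapping peaks lay between 23.2 and 49.9 kb from the annotated 5′ end, so the first 44.9% of the gene held none. On the 3′ side of that border were 39 of 48 peaks in replicate 1 and 41 of 57 in replicate 2, and none of these was intronic throughout. On the 5′ side were 9 and 16 peaks, of which 7 and 13 were intronic throughout. The border was set by the overlapping peak nearest to the 5′ end, so the absence of overlap on its 5′ side follows from the way it was drawn. The heights there were 4 to 5 tags in replicate 1. In replicate 2 they were 5 to 15 tags, and the peak of 15 tags, chr9:136523700-136523750 across a border of CDS and intron, lay just beside the border and had no counterpart in replicate 1.

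**Figure D4:**
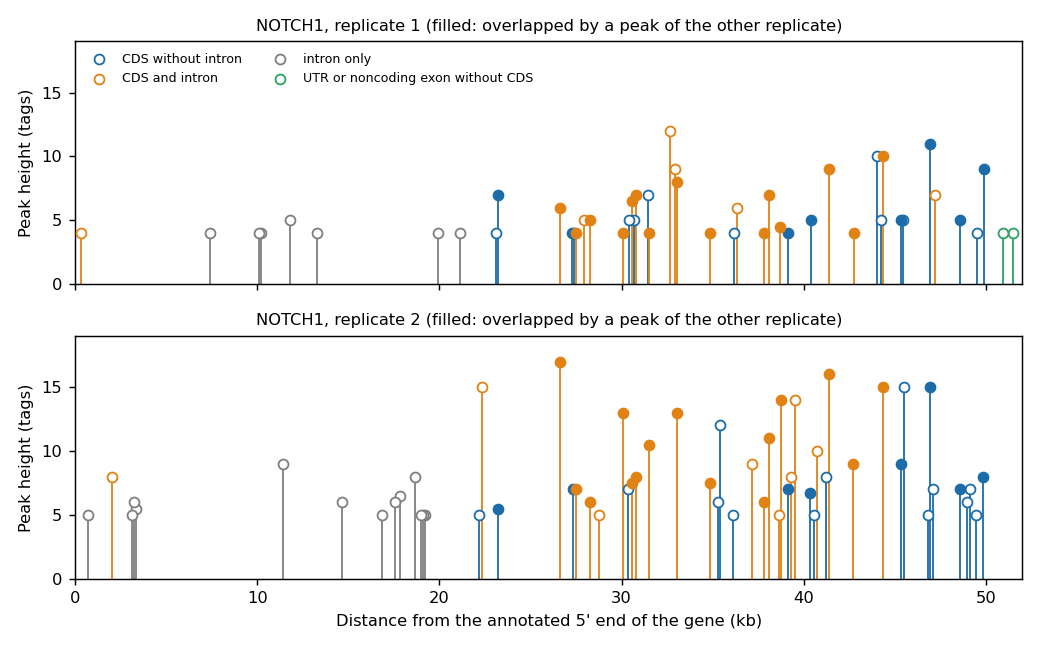
Sense peaks of NOTCH1 by distance from the annotated 5′ end in kb (horizontal axis) and height in tags (vertical axis), replicate 1 above and replicate 2 below. Colours give what the peak covers, and filled circles mark peaks overlapped by the other library, all of them between 23.2 and 49.9 kb, while the grey peaks that are intronic throughout lie nearer to the 5′ end.

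Of the 24 NOTCH1 peaks of replicate 1 with a counterpart, 17 lay mainly in CDS and 15 held both CDS and intron. The peak in replicate 2 was higher in 22 of them and lower in 2, with medians of 5 and 8 tags in the respective libraries. Replicate 2 listed no peak under 5 tags, so its peak had to be higher wherever that of replicate 1 was under 5. At least 5 tags in replicate 1 were found in 14 of the 24. In the whole lists 2.73% (replicate 1) and 8.75% (replicate 2) of sense peaks had at least 10 tags. The peaks chr9:136518650-136518700 and chr9:136518750-136518800 of replicate 1 met the same peak of replicate 2, which was counted for each. At 2 places both peaks had at least 10 tags. One was chr9:136499100-136499150, mainly CDS, with 11 tags in replicate 1 and 15 in replicate 2. The other was chr9:136501700-136501750, mainly intronic with a small coding part, with 10 tags and 15 tags.

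Heights at the same place differed between the libraries. The highest peak of the gene, chr9:136519400-136519450, had 17 tags in replicate 2 and 6 in replicate 1. At chr9:136504650-136504700 the heights were 9 tags in replicate 1 and 16 in replicate 2. The peak chr9:136515950-136516000 had 4 tags, the lowest height listed, in replicate 1 and 13 in replicate 2. Across the 24 replicate 1 peaks with a counterpart, heights in the libraries had a Pearson r of 0.516 and a Spearman rho of 0.424. These are given as a description over peaks of 1 gene, which share its RNA. The reverse order was seen at chr9:136496150-136496200, with 9 and 8 tags, and at chr9:136522800-136522850, with 7 and 5.5 tags.

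High peaks without a counterpart were found in both lists. In replicate 1 these were chr9:136513350-136513400 with 12 tags and chr9:136502000-136502050 with 10 tags. In replicate 2, chr9:136500550-136500600 with 15 tags, chr9:136506500-136506550 with 14 tags, chr9:136510650-136510700 with 12 tags and chr9:136505300-136505350 with 10 tags were not overlapped, besides the peak of 15 tags named above. The first of these touched a peak of 5 tags in replicate 1, chr9:136500600-136500650. Among the high NOTCH1 peaks, 2 of 4 (replicate 1) and 9 of 14 (replicate 2) had a counterpart, beside 22 of 44 and 14 of 43 of the lower ones.

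NOTCH3 had 6 overlapping pairs, from 9.02 to 40.145 kb from its 5′ end, and 5 of them held both CDS and intron. The highest, at chr19:15191950-15192000, had 7 and 11 tags. A neighbouring pair at chr19:15191700-15191750 had 7 and 9 tags. The pair at chr19:15186850-15186900 had 8 tags in replicate 1 and 5 in replicate 2, and was the only NOTCH3 pair that was higher in replicate 1. No place in NOTCH3 reached 10 tags in both libraries.

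**Figure D5:**
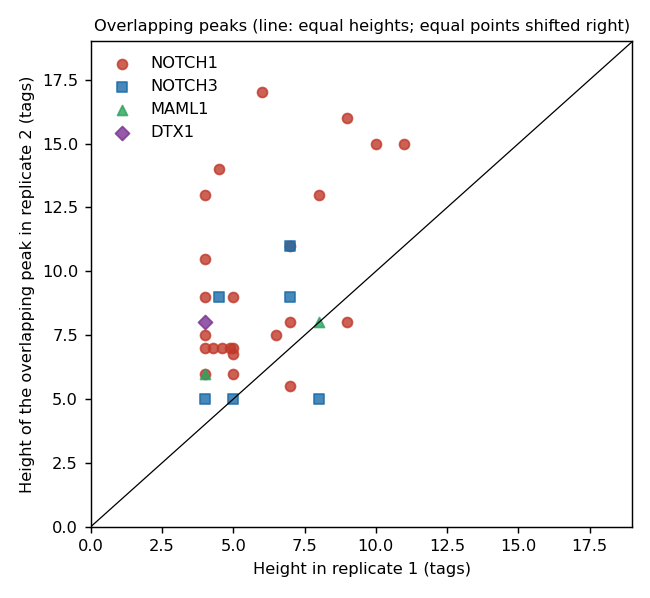
Heights in tags of the overlapping peaks of NOTCH1, NOTCH3, MAML1 and DTX1, with replicate 1 on the horizontal and replicate 2 on the vertical axis and a line of equal heights. Of 24 NOTCH1 points 22 lie above the line, and the 2 points with at least 10 tags on both axes belong to NOTCH1. Points under 5 tags in replicate 1 must lie above the line, since replicate 2 lists no peak under 5 tags.

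On the opposite strand, no antisense peak was assigned to NOTCH1 in either library, 0 of 48 and 0 of 57 peaks on both strands together, which allows shares of up to 6.25% and 5.26%. In the whole lists, antisense peaks were 28.1% and 23.0% of the peaks on a gene. The other 9 genes had 24 antisense beside 50 sense peaks in replicate 1 (32.4%) and 13 beside 88 in replicate 2 (12.9%). MAML2 had 9 antisense peaks in replicate 1, more than its 7 sense peaks, and 1 in replicate 2. RBPJ had 6 and 3 antisense peaks, NOTCH3 3 and 0, NUMB 3 and 2, NOTCH2 2 and 1, FBXW7 1 and 2, MAML1 0 and 3, and DTX1 0 and 1. The difference between NOTCH1 and the other genes on the antisense strand was not tested.

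The wider pathway was read through a list of 56 further genes, of which 44 could be tied to an identifier with a sense peak. Of the 56, 34 (60.7%) had a sense peak in both libraries, where 43.8% of 20052 protein-coding genes did. An overlapping pair was found in 17 (30.4%), where 15% of protein-coding genes had one. A pair with at least 10 tags on each side was found in 6, where 2.85% of protein-coding genes had one. The list holds genes of different length and expression, which were not matched to the background, and it was put together with results of these data known. The counts also depend on naming by position. The ubiquitin ligase ITCH counts as without a peak, although 12 and 8 peaks of any kind lay in its annotated interval. Their identifier was not tied to it by the naming rule. CIR1, listed with the corepressors, matched no protein-coding gene of the RefSeq table. It could not be given a peak but stays in the counts.

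Among the corepressors, which sit with RBPJ at target genes when Notch is off, 8 of 10 genes had a peak in both libraries and 6 of 10 an overlapping pair. NCOR1, a large scaffold of corepressor complexes, had 34 and 47 sense peaks and 2 pairs with at least 10 tags on each side. CTBP1, another corepressor, had 29 and 47 peaks with 1 such pair, TLE3 of the Groucho family 22 and 21 with 3, and HDAC1, a histone deacetylase, 9 and 14 with 1. SPEN, which binds RBPJ directly, had 31 and 45 peaks and none.

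Among the coactivators, 6 of 8 genes had a peak in both libraries and 3 of 8 a pair. The acetyltransferases CREBBP and EP300 had 26 and 37 and 24 and 23 peaks, and KAT2A had 5 and 8. MAML3, the third Mastermind-like gene, had 8 and 4 peaks and no overlapping pair, and CDK8, a kinase of the Mediator complex, had 5 and 4. Of the 9 proteases that process the receptors, 7 had a peak in both (77.8%) and 2 a pair (22.2%). ADAM10, which makes the cut outside the membrane, led them with 10 and 17. Genes of endocytosis and ubiquitin ligation had a peak in both for 4 of 8, with AAK1, a kinase of clathrin adaptors, at 14 and 18 and SEL1L at 9 and 7. Of 5 glycosyltransferases 3 had a peak in both, and MFNG, a Fringe enzyme, had 3 and 5.

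The ligands together with NOTCH4 had the lowest share of genes with a peak in both libraries. A sense peak in both libraries was found in 1 of 6 genes, JAG2, with 3 and 1 peaks, and none had an overlapping pair. Of 10 further targets 5 had a peak in both libraries and 3 an overlapping pair. IGF1R, a growth factor receptor, stood apart with 44 and 62 peaks and 1 pair of at least 10 tags on each side. For 3 genes of the list, the ligand DLL4 and the targets HEY1 and IL7R, no peak of any kind lay in the annotated gene.

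By numbers of peaks in CDS, introns and other exons in each library, the identifiers most like NOTCH1 were PTPRS, PRKDC, TNRC6C, RNF213 and BPTF, as the Euclidean distance over 6 values of log2(number + 1). PTPRS, a receptor-type protein phosphatase, was nearest at a distance of 1.426, with 40 sense peaks in replicate 1 and 44 in replicate 2. It spans 135.3 kb, and 15 of its peaks were overlapped in each library (37.5% and 34.1%). PRKDC, a DNA repair kinase, had 33 and 46 peaks, TNRC6C, of the machinery of microRNA silencing, 39 and 42, RNF213, a ubiquitin ligase, 66 and 88, and BPTF, a chromatin remodeller, 36 and 26. All of them are longer than NOTCH1. Their overlapped shares ran from 33.3% to 51.5% in replicate 1 and from 26.1% to 46.2% in replicate 2, a range that includes the values of NOTCH1.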

How the data were processed

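RNA bound by IGF2BP2 in Jurkat cells was measured in 2 iRIP libraries, replicates 1 and 2 by their titles. Read pairs of 150 bp were aligned by the authors with TopHat2 to GRCh38 (submitters' processing notes), and called peaks in each library separately against 500 simulations per gene at p values under 0.05, without peaks that met an input peak. The deposited height is a signal in tags, with no correction for depth, and the deposited p-value served as a filter alone. Regions and gene identifiers are the authors' own. Positions are printed as deposited. Total reads per library are not given in the sources used here. No column of other samples was present (0).

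Members were matched by Ensembl gene and checked by position in the RefSeq table (GRCh38.p14), and all their sense peaks lay inside the annotated gene. Other identifiers were named by position, for a protein-coding gene holding at least 80% of their peaks with a margin of 1000 nt, which named 12756 of 20428. A peak was counted in the region with its largest share. What it covers was read from its region shares. Peaks overlapped when at least 1 bp was shared on 1 strand, and neighbours that only touch did not. Shares have 95% Wilson intervals and differences Newcombe intervals. Where a count was 0, the share it allows was taken as 3 divided by the number of peaks, which differs from the Wilson limit. NOTCH1 was compared with the other 9 members by two-sided Fisher's exact tests, with Benjamini-Hochberg adjustment over 6 tests and a threshold of 0.05, and with the other receptors in a family of its own. The members, the lists and the tests were chosen with earlier results of these data known. Genes named were all members, genes of the wider list with a pair of at least 10 tags on each side, at most 10 further genes by mean number of peaks, and the 5 identifiers most like NOTCH1. One gene that this rule names is not reported here. JAG2, ITCH, CIR1, DLL4, HEY1 and IL7R were added after their values were seen. Alternatives were other minimum heights, a p value under 0.001, exonic peaks only, genes by position, other overlap rules, any CDS, weighting by length, the receptors alone, and each library left out. All 7 checks of the functions on simulated data passed. Scripts ran in Python 3.11.15 (pandas 2.3.3, scipy 1.17.1, numpy 2.4.6, matplotlib 3.10.9).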

Additional observations from a re-analysis of the deposited data

How the results depend on the processing

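No paired analysis was possible because only the iRIP libraries were analysed here, so no replicate number is shared between groups. With at least 10 tags, NOTCH1 had 4 and 14 peaks (0.775 and 2.71 per 10 kb). With at least 5 tags it had 26 in replicate 1 (5.04 per 10 kb). With a p value under 0.001 it had 15 and 32, and 31 and 37 among exonic peaks (6.01 and 7.17 per 10 kb). Members with a peak in both libraries numbered 1, 3 and 5 with at least 10 tags, with p under 0.001 and among exonic peaks, and 1 had an overlapping pair of at least 10 tags. The wider list fell to 7 genes with at least 10 tags and 20 with at least 5.

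The CDS difference changed sign against the receptors in replicate 1 (-6.67 points) and with at least 10 tags in replicate 2 (-28.6 points, 10 of 14 NOTCH1 peaks against 2 of 2). It lost its call at p under 0.001 (3.33 and 26.0 points, adjusted p = 1 and 0.0703, Fisher's exact test), with at least 5 tags in replicate 1 (18.3 points), and against the receptors in replicate 2 (11.1 points). The overlap difference lost its call at p under 0.001 (15.8 and 12.5 points), with at least 5 tags in replicate 1 (24.4 points), with at least 10 tags in replicate 2 (14.3 points) and against the receptors in replicate 1 (20.0 points). In each of these settings the difference itself was smaller than in the main comparison, and fewer peaks were compared. The main differences were 24.3 and 32.0 points for CDS and 32.0 and 30.1 points for overlap. The cause was not tested. With at least 10 tags, replicate 1 held no peak of another member and gave no value, and an overlap needs both libraries. With either library left out, NOTCH1 had 48 to 57 peaks (9.3 to 11.0 per 10 kb), the CDS difference was 24.3 to 32.0 points, the high-peak difference 8.33 to 22.3 points, the members with a peak 9 and the wider genes 39. With at least 15 tags, no peak of replicate 1 was left in any member, so no difference was seen. With this one and those with a library left out, 48 alternative values turned no direction and kept, where tested, their side of the threshold. Depth is unknown, and the inputs were not analysed here.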
